A study of Schizothorax plagiostomus with 18 samples.

Results

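Ovaries of the snow trout Schizothorax plagiostomus collected at spawning were compared with ovaries collected before spawning. The comparison used 6 of the 18 gonad libraries of the series, 3 from spawning females and 3 from pre-spawning females. It covered features, each of them a transcript or a cluster of transcripts, whose mean reached at least 1 CPM (counts scaled to a library total of 1000000) at either stage, with library totals scaled within the 9 ovary libraries. Of 135031 features, 33567 (24.9%) met this threshold and are the members described here. Both stage means were at or above 1 CPM for 28880 members, the spawning mean alone for 2418 and the pre-spawning mean alone for 2269. Members held between 99.2% and 99.4% of the counts of each library. The threshold passed through a dense part of the distribution, since 781 features had a higher stage mean of 1.0 to 1.1 CPM and 903 lay just outside it, at 0.9 to 1.0 CPM.

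Snow trouts are cold-water cyprinid fishes of Himalayan rivers that breed seasonally. A fish ovary is made up of oocytes enclosed by granulosa and theca cells. Before spawning, growing oocytes take up vitellogenin, a yolk precursor made in the liver under oestrogen, and store maternal transcripts and egg envelope proteins. Around spawning, luteinizing hormone drives the final maturation of the oocyte and its release from the follicle, so the ovary of a spawning female may hold ripe eggs, emptied follicles and younger oocytes in changing proportions.

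The series sampled ovaries and testes at 3 stages, pre-spawning, spawning and post-spawning, in 3 libraries each, and its title names season and sex as the subjects. The spawning group was ovary RNA from females labelled as spawning in seasons 1, 2 and 3, and the pre-spawning group was ovary RNA from females labelled as pre-spawning in the same seasons. The labels record no treatment, and they do not give the strain, the age of the fish, the number of fish per library or the criterion for the stage. Whether the 3 libraries of a stage came from separate fish is not stated either, so p-values reflect only how these samples vary, and part of that variation may be technical.

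Depth ranged from 24700000 to 47800000 counts over the 6 libraries, with spawning ovary 3 the deepest. Features carry identifiers without gene names, so no marker gene of the ovary or of any other cell type could be looked up and no role is given for any feature. The tissue label was instead checked against the other libraries. Across members, every one of the 6 libraries had a Spearman correlation of at least 0.750 with each other ovary and of at most 0.627 with any testis. Members were chosen by their level in these 6 ovaries and not in testes, so part of this gap may come from that choice. The 3 libraries of a stage were not copies of each other: the chi-square of their counts per degree of freedom was at least 65.1 for every pair of the same stage, where sampling noise alone gives about 1.

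The stage labels did not divide the libraries into separate clusters. Spearman correlations across members, which share their libraries and are not independent, ran from 0.828 to 0.880 between spawning ovaries and from 0.865 to 0.910 between pre-spawning ovaries. Between a spawning and a pre-spawning ovary they ran from 0.821 to 0.911, a range that spans both. Spawning ovary 1 was closest to pre-spawning ovary 1, at 0.889, and spawning ovary 2 was closest to pre-spawning ovary 3, at 0.911. Spawning ovary 3 was closest to post-spawning ovary 1, at 0.890. Of the correlations between a spawning and a pre-spawning ovary, those of spawning ovary 3 were the lowest, at 0.821 to 0.839. Its correlation with spawning ovary 2, of its own stage, was as low, at 0.828. Of the variance of members on the log2(CPM + 0.5) scale, 24.2% lay between the stages and the rest lay within them. Any split of 6 libraries into groups of 3 puts some variance between the groups. The share for other splits was not computed, so 24.2% does not measure an effect of stage.

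**Figure D1:**
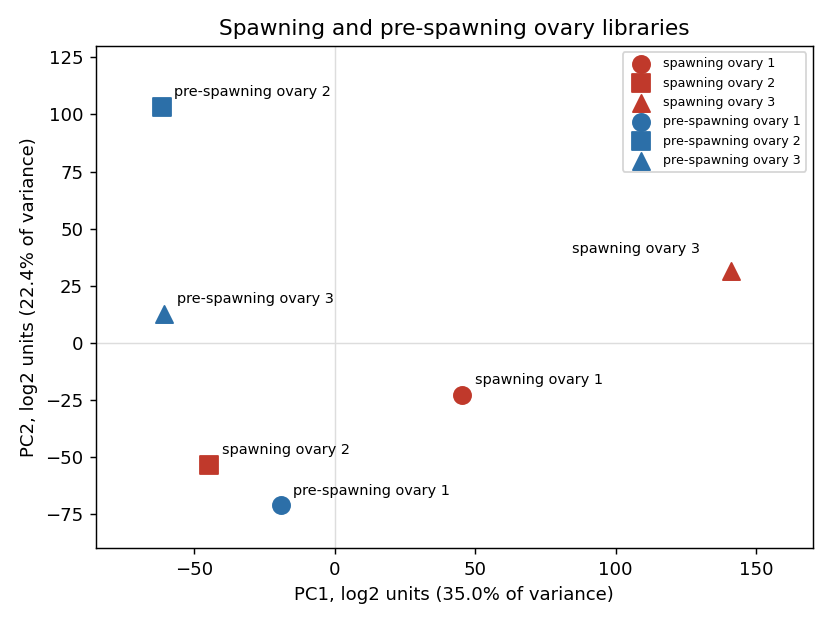
Scores of the 6 ovary libraries on the first and second principal components of members, in log2 units, with each point 1 library, colour the stage and marker shape the season. Spawning ovary 3 lies alone at 141 on the first component, while spawning ovary 2, at -44.6, lies among the pre-spawning ovaries, which run from -61.6 to -19.3.

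The plot of principal components shows the same overlap. The first component held 35.0% of the variance. Its scores were 45.3, -44.6 and 141 in spawning ovaries 1, 2 and 3, against -19.3, -61.6 and -60.8 in pre-spawning ovaries 1, 2 and 3. The median within-stage SD per member was 0.465 log2 units in spawning ovaries, against 0.418 in pre-spawning ovaries (n = 3 libraries each). The SD was larger in spawning ovaries for 55.3% of members. By pairs of libraries, the SD of log2 differences ran from 0.989 to 1.21 between spawning ovaries and from 0.853 to 1.07 between pre-spawning ovaries. These ranges overlap, and the highest value was that of spawning ovaries 2 and 3. Within seasons, the SD of the spawning minus pre-spawning log2 differences over members was 0.960 in season 1, 1.04 in season 2 and 1.20 in season 3.

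No member passed the test across all features. With edgeR's quasi-likelihood test on 42501 features, of which 33286 were members, 0 features had an adjusted p under 0.05 in the higher direction (0% of those tested) and 0 in the lower direction (0%), and the smallest adjusted p was 0.868. At an unadjusted p under 0.05 there were 2092 features (4.92% of those tested). Among members, 882 of these stood higher in spawning ovaries (2.65% of members, beside 2.39% of all features tested) and 884 stood lower (2.66% of members, beside 2.54%). Those shares lie near the background. Without post-spawning ovary 1 in the edgeR fit the unadjusted count was 3949 features, still with 0 at an adjusted p under 0.05. With no low-count filter edgeR called 1389 of 100952 features at an adjusted p under 0.05, and 1153 of the 33567 members were among them. The 281 members not tested in the main fit were left out by edgeR's low-count filter, which asks for enough counts in several libraries. cluster14689, with 15378 counts in pre-spawning ovary 1, was among them.

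The fitted changes were small beside their errors for most members. The median log2 fold change, spawning over pre-spawning, was -0.03 over members, with the middle part of the distribution between -0.44 at the 25th percentile and 0.45 at the 75th. The median standard error was 0.55, and 18345 members (55.1%) had an absolute log2 fold change below 0.5. A fitted change of at least 1 log2 unit was seen in 3269 members (9.82%, beside 10.8% of all features tested) and a change of at most -1 in 2670 members (8.02%, beside 10%). The biological coefficient of variation over the 9 ovaries was 64.3%.

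Other tools gave different counts from the same table. limma-voom called 0 features, with 1936 at an unadjusted p under 0.05. DESeq2 called 88 features at an adjusted p under 0.05, with 2790 at an unadjusted p under 0.05. Of the DESeq2 calls, 38 members were higher in spawning ovaries (0.114% of members, beside 0.0965% of all features tested) and 45 members were lower (0.135%, beside 0.111%). Of the 88 calls, 34 were features with at most 3 counts in 3 or more of the 6 libraries, and 43 had an absolute log2 fold change over 5. At most 3 counts in 5 or more of the 6 libraries was seen for 8 of them. In 68 of the 88 the libraries did not overlap between the stages. The calls were chosen for a difference between the stages, so that number carries no test. Without spawning ovary 3, DESeq2 called 91 features, 30 higher and 61 lower, and 44 of the 88 were among them.

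A count of members whose libraries did not overlap between the stages gives a description that does not rest on a model. All 3 spawning libraries lay above all 3 pre-spawning libraries for 2185 members (6.56%, beside 6.16% of all features tested), and all 3 lay below for 2596 members (7.80%, beside 7.27%). This split depended on the scaling: with CPM on unscaled totals it was 2725 above and 1746 below. With edgeR's RLE (relative log expression) scaling of the totals it was 2396 above and 2337 below. When spawning and pre-spawning ovaries of the same season were set against each other, 138 members were at least 2-fold higher in spawning ovaries in each of the 3 seasons (0.415%, beside 0.327% of all features tested). At least 2-fold lower in each season were 197 members (0.592%, beside 0.466%). A difference of at least 4-fold was more common in a single season: 606 members higher and 855 lower in season 1, 900 and 1012 in season 2, and 1565 and 1026 in season 3.

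**Figure D2:**
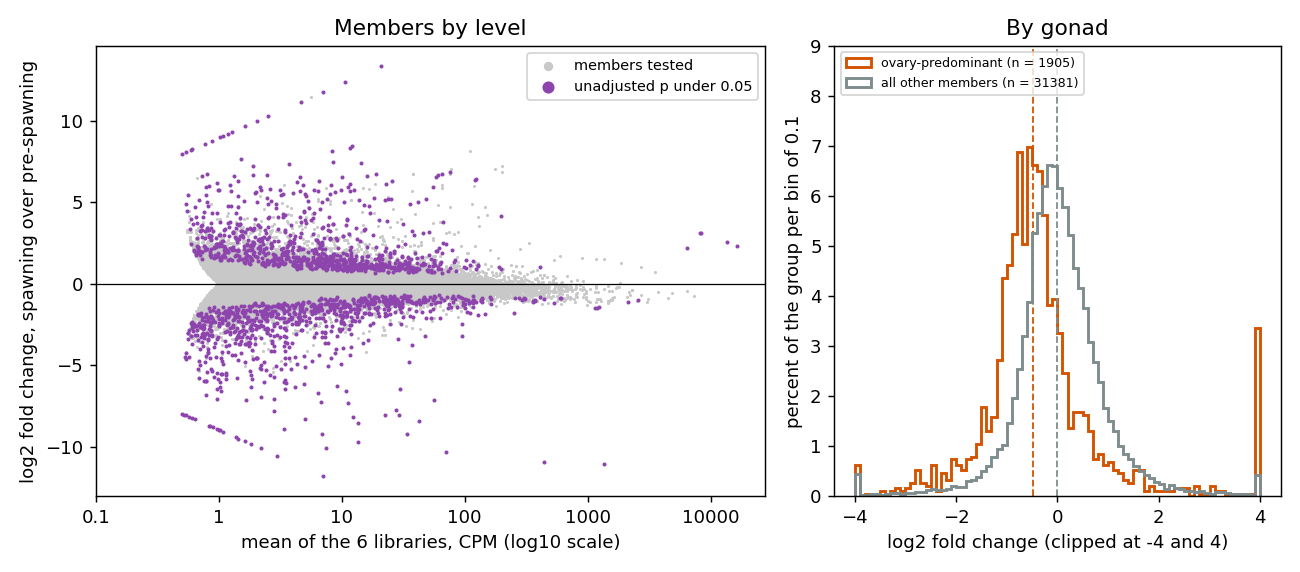
Left, fitted log2 fold change (spawning over pre-spawning) of the 33286 members tested against their mean over the 6 libraries in CPM on a log10 axis, with purple points at an unadjusted p under 0.05. Right, the distribution of the same log2 fold change, in percent of each group per bin, for 1905 ovary-predominant members and all other members, with dashed lines at the medians of each and values beyond 4 or -4 placed in the end bins; the ovary-predominant median lies at -0.48.

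The most abundant members leaned lower in spawning ovaries, apart from a small group at the very top. In the plot of fold change by level the median log2 fold change was 0.07 for 17306 members with a mean of 1 to 10 CPM and -0.08 for 12592 members at 10 to 100 CPM. It was -0.27 for 1543 members at 100 to 1000 CPM and -0.57 for the 57 members at or above 1000 CPM, beside -0.03 for all features tested. Of these 57 members, 0 had every spawning library above every pre-spawning library (0%) and 21 had every one below (36.8%). Of the 1543 members at 100 to 1000 CPM, 29 lay above (1.88%, beside 6.16% of all features tested) and 230 below (14.9%, beside 7.27%). In bulk tissue, fewer cells of a type and less RNA per cell cannot be told apart.

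The 4 features of highest mean in spawning ovaries took a large share of the counts in spawning ovaries 1 and 3. cluster61036, cluster32980, cluster69527 and cluster73334 together took 10.2%, 1.30% and 12.5% of the counts in spawning ovaries 1, 2 and 3, against 1.89%, 0.426% and 1.68% in pre-spawning ovaries 1, 2 and 3. cluster61036 had 29823, 4014 and 48468 CPM in spawning ovaries, against 8412, 2125 and 5981 CPM in pre-spawning ovaries. Spawning ovary 2 lay below pre-spawning ovaries 1 and 3, so the stages overlapped, although spawning exceeded pre-spawning within every season. Its log2 fold change was 2.32 ± 0.98 (SE), with an edgeR adjusted p of 0.868. Its level in testes was of the same order, from 8097 to 24541 CPM over 9 libraries.

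cluster32980 followed cluster61036, with 26566, 3112 and 40120 CPM in spawning ovaries against 5629, 1576 and 4842 CPM in pre-spawning ovaries. cluster69527 had 18218, 1973 and 24832 CPM in spawning ovaries against 1945, 429 and 2797 CPM in pre-spawning ovaries. cluster73334 had 17866, 1973 and 24516 CPM in spawning ovaries against 1949, 432 and 2783 CPM in pre-spawning ovaries. Within each of the 6 libraries the last pair had nearly the same level, as in post-spawning ovaries 2 and 3. In post-spawning ovary 1 they parted, at 4864 CPM for cluster69527 and 8722 CPM for cluster73334. Reads of near-identical sequences could be divided between such features in the authors' counting, which was not tested. Their log2 fold changes were 3.12 ± 1.05 for cluster69527 and 3.10 ± 1.15 for cluster73334 (SE), and neither passed, at an edgeR adjusted p of 0.868.

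cluster0 joins 230 transcripts and was the fifth most abundant feature of spawning ovaries. It stood at 18552, 1095 and 11900 CPM in spawning ovaries, against 2581, 2387 and 1793 CPM in pre-spawning ovaries. Spawning ovary 2 was the lowest of the 6 libraries, so the direction differed between seasons. The next most abundant, cluster55, joins 55 transcripts and ran the other way, with a log2 fold change of -0.73 ± 0.63 (SE). cluster18, which joins 78 transcripts, had 5144, 1791 and 6249 CPM in spawning ovaries against 3947, 1947 and 2071 CPM in pre-spawning ovaries. cluster38909 showed the same order of spawning libraries, with 3352, 981 and 6641 CPM in spawning ovaries against 2804, 1036 and 1527 CPM in pre-spawning ovaries. In cluster0, cluster18 and cluster38909 spawning ovary 2 lay below every pre-spawning library.

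The concentration of counts in a few features followed these levels. The 10 most abundant features of each library held 14.5%, 4.64% and 16.4% of its counts in spawning ovaries 1, 2 and 3, against 6.14%, 5.59% and 5.43% in pre-spawning ovaries. The means were 11.9% ± 6.33 in spawning ovaries and 5.72% ± 0.371 in pre-spawning ovaries (SD, n = 3 each). The two-sided p from an exact permutation test was 0.4, or 0.6 when adjusted over 6 library-level comparisons. With 3 libraries against 3, the smallest p this test can give is 0.1. At equal depth, 59968 ± 1175 features were detected in spawning ovaries and 59600 ± 399 in pre-spawning ovaries (SD, n = 3 each), with an exact permutation p of 0.9.

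**Figure D3:**
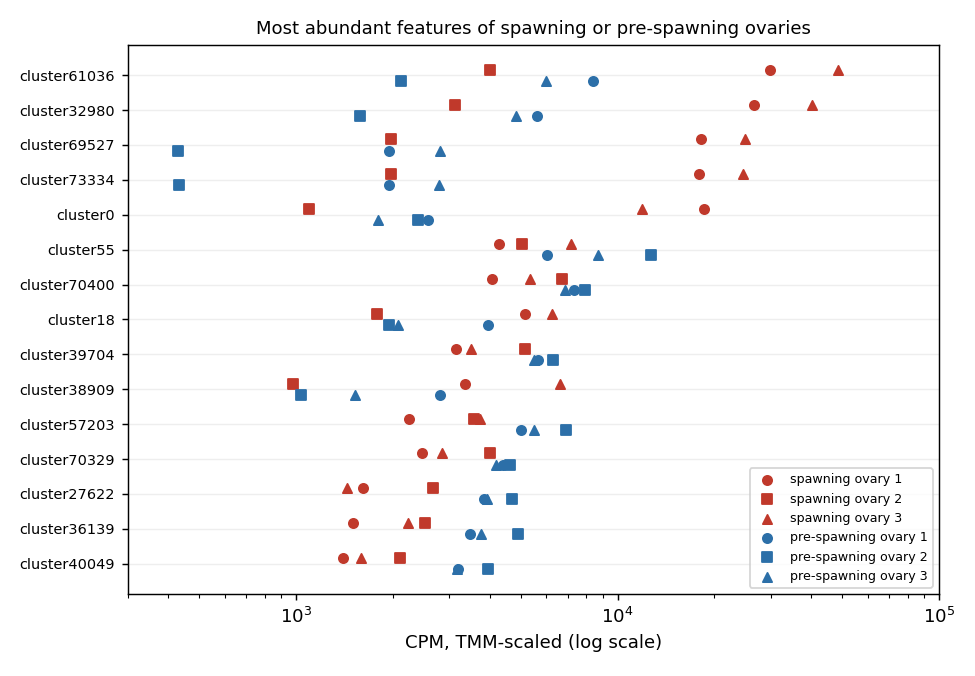
Level of the 15 features among the 10 most abundant of spawning or of pre-spawning ovaries, in TMM-scaled CPM on a log axis, with 1 point per library, colour for the stage and marker shape for the season. The upper 5 features lie above every pre-spawning library in spawning ovaries 1 and 3, while spawning ovary 2 stays near the pre-spawning libraries, and in the lower rows, such as cluster27622, all 3 spawning libraries lie left of all 3 pre-spawning libraries.

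Among the 10 most abundant features of pre-spawning ovaries, cluster61036 and cluster32980 stood higher at spawning on average, and the other 8 had negative log2 fold changes. cluster27622 had 1619, 2664 and 1438 CPM in spawning ovaries, against 3846, 4707 and 3928 CPM in pre-spawning ovaries. All 3 spawning libraries lay below all 3 pre-spawning libraries, and the log2 fold change was -1.13 ± 0.51 (SE), with an edgeR adjusted p of 0.868. cluster40049 had 1402, 2112 and 1597 CPM in spawning ovaries, against 3179, 3961 and 3171 CPM in pre-spawning ovaries. cluster36139 had 1509, 2525 and 2233 CPM in spawning ovaries, against 3481, 4907 and 3769 CPM in pre-spawning ovaries. The stages were separated for both, with log2 fold changes of -1.01 ± 0.45 for cluster40049 and -0.96 ± 0.55 for cluster36139 (SE).

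The same separation held for cluster57203, with 2240, 3574 and 3736 CPM in spawning ovaries against 5012, 6930 and 5481 CPM in pre-spawning ovaries. It also held for cluster70400, cluster39704 and cluster70329, whose log2 fold changes were -0.45 ± 0.49, -0.57 ± 0.50 and -0.51 ± 0.48 (SE). Without spawning ovary 1 the value for cluster70400 was -0.29. cluster55, a cluster of 55 transcripts and the most abundant feature of pre-spawning ovaries, had 4285, 5053 and 7146 CPM in spawning ovaries against 6025, 12662 and 8701 CPM in pre-spawning ovaries. Its stages overlapped. None of these features passed the edgeR test. In the 9 testes they reached at most 48.7 CPM, the value of cluster55 in its highest testis library.

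Features with far more RNA in ovaries than in testes were then followed as a group. They were chosen on libraries outside the comparison, as features with at least 1 CPM in post-spawning ovaries and at least 16 times the testis mean. Both levels in this choice were CPM on unscaled totals. The post-spawning ovaries do enter the fit's estimate of spread and scaling. Of the members tested, 1905 were ovary-predominant in this sense, and their median log2 fold change was -0.48, beside -0.03 over all features tested. Of these, 24.4% had a fold change above 0. Without pre-spawning ovary 2 the median was -0.27, the nearest to 0 with any library left out.

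Season by season the median log2 difference of the ovary-predominant members was -0.48 in season 1, -0.55 in season 2 and -0.39 in season 3. Every spawning library lay above every pre-spawning library for 40 of them (2.10%, beside 6.16% of all features tested) and below for 313 (16.4%, beside 7.27%). The lean was larger among abundant ones, with a median of -0.34 for 659 features at 1 to 10 CPM, -0.50 for 763 at 10 to 100 CPM and -0.57 for 434 at 100 CPM or more. In total, 40 of the 57 members at 1000 CPM or more were ovary-predominant, and 20 of the 21 that were lower in every spawning library belonged to them. No single feature among them passed the edgeR test.

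The share of all counts in 1917 ovary-predominant members was 16.2%, 24.4% and 18.2% in spawning ovaries 1, 2 and 3, against 23.4%, 31.3% and 28.4% in pre-spawning ovaries 1, 2 and 3. Spawning was lower within every season, and the stages overlapped only through spawning ovary 2 and pre-spawning ovary 1. The means were 19.6% ± 4.29 in spawning ovaries and 27.7% ± 3.99 in pre-spawning ovaries (SD, n = 3 each). In spawning ovaries 1 and 3 the ovary-predominant share was below every pre-spawning library, while the share of the 10 most abundant features was above. The part of the latter in the difference was not tested. Testis-predominant members were defined in the same way with the gonads exchanged. The 365 tested had a median log2 fold change of 0.04, and testis-predominant members held 0.177% ± 0.0182 of counts in spawning ovaries and 0.132% ± 0.0165 in pre-spawning ovaries (SD, n = 3 each).

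A tail of ovary-predominant members ran the other way. In 63 of them (3.31%) the log2 fold change was at least 4, compared with 127 of the 31381 other members (0.405%). Post-spawning ovary 1, the library closest to spawning ovary 3, helped to define the group. Features high in both could enter through it, so the difference in shares is not independent of the choice. Spawning ovary 3 was the highest library for 55 of the 63, and 43 of the 63 had at least 10 CPM in post-spawning ovary 1, against 13 and 11 in post-spawning ovaries 2 and 3. The 127 other members were alike in this: spawning ovary 3 was the highest for 97, and 64 had at least 10 CPM in post-spawning ovary 1. Every spawning library lay above every pre-spawning library for 7 of the 63 and for 43 of the 127 others, beside 6.16% of all features tested. Both sets were chosen for a large fitted change, so these counts carry no test. The tail thus consists largely of features high in spawning ovary 3.

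The members that best separated the stages in the higher direction were named by the lowest unadjusted p. They were taken among 297 members whose stages did not overlap, with 10 CPM or more on average in spawning ovaries and a log2 fold change of 1 or more. The 297 came from 15409 members tested with a mean of at least 10 CPM. All of those named had an edgeR adjusted p of 0.868 and are given as values that did not pass. cluster6420 had 38.6, 57.1 and 70.6 CPM in spawning ovaries, against 14.9, 6.47 and 9.74 CPM in pre-spawning ovaries. Every spawning library exceeded every pre-spawning library, and the log2 fold change was 2.42 ± 0.46 (SE). DESeq2 called it, at an adjusted p of 0.00169, and at 0.0462 without spawning ovary 3.

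cluster5682 showed the tightest groups of the set. It had 18.9, 14.5 and 16.9 CPM in spawning ovaries, against 6.79, 6.36 and 6.20 CPM in pre-spawning ovaries, a log2 fold change of 1.38 ± 0.30 (SE). cluster12404 was similarly tight, with 15.0, 13.3 and 12.6 CPM in spawning ovaries against 4.99, 4.25 and 5.66 CPM in pre-spawning ovaries. DESeq2 gave adjusted p values of 0.00733 for cluster5682 and 0.0346 for cluster12404, but without spawning ovary 3 neither was called, at 0.101 and 0.166, with log2 fold changes of 1.40 and 1.55.

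cluster55625 had 29.8, 51.0 and 33.4 CPM in spawning ovaries, against 7.32, 7.16 and 10.1 CPM in pre-spawning ovaries. cluster20118 had 78.7, 70.8 and 156 CPM in spawning ovaries, against 24.9, 22.9 and 19.2 CPM in pre-spawning ovaries. Their log2 fold changes were 2.21 ± 0.48 for cluster55625 and 2.19 ± 0.48 for cluster20118 (SE). The testes held little of cluster20118, from 1.57 to 9.27 CPM, and more of cluster55625, from 5.40 to 63.0 CPM.

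cluster47, which joins 57 transcripts, had the highest levels of the named set. It stood at 563, 175 and 374 CPM in spawning ovaries, against 32.6, 12.1 and 18.4 CPM in pre-spawning ovaries. The difference was of like size in every season, with differences of 4.09, 3.80 and 4.31 on the log2(CPM + 0.5) scale, and the fitted log2 fold change was 4.14 ± 0.92 (SE). With season as a block its edgeR adjusted p was 0.381, the smallest of that fit. Among the named features, cluster57641 and cluster14107 shared that value, and features not named may share it too. DESeq2 gave cluster47 an adjusted p of 0.000491, or 0.0072 without spawning ovary 3. In post-spawning ovaries it had 404, 27.9 and 102 CPM, and in the testes it ranged up to 2381 CPM.

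cluster57641 was the most ovary-limited of the set, with at most 0.177 CPM in any testis. It had 3.73, 35.2 and 5.66 CPM in spawning ovaries, against 0.0930, 1.09 and 0.0321 CPM in pre-spawning ovaries. Spawning ovary 2 carried most of the signal, while the other spawning libraries still lay above every pre-spawning library. The 3 pre-spawning libraries held 3, 30 and 1 counts, so its log2 fold change of 5.21 ± 1.35 (SE) rests on few counts at that stage. The remaining members of the set were cluster47001, cluster22083 and cluster2651, with log2 fold changes of 1.88 ± 0.48, 2.69 ± 0.70 and 1.21 ± 0.32 (SE).

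**Figure D4:**
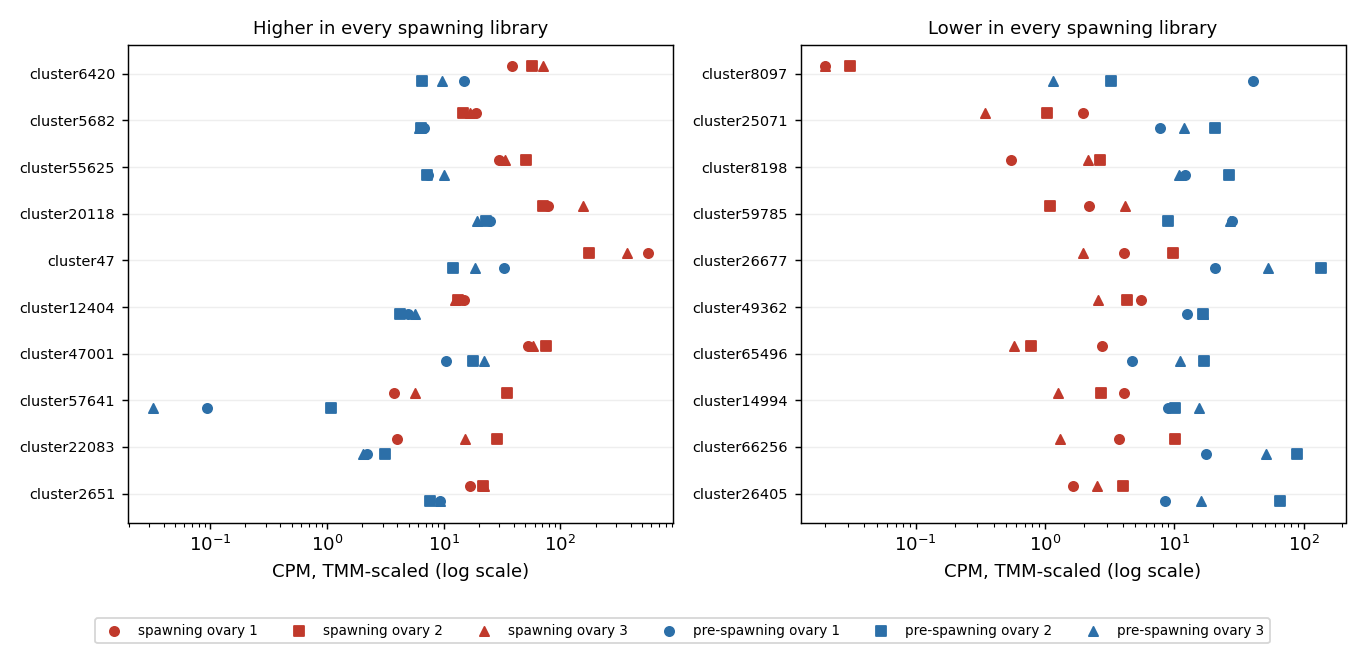
Level of the 10 members named as higher (left) and the 10 named as lower (right) in every spawning library, in TMM-scaled CPM on a log axis, with 1 point per library, colour for the stage and marker shape for the season; values of 0 are drawn at 0.02. cluster47 shows the widest gap among abundant members on the left, and cluster8097 lies at or near 0 in all 3 spawning libraries on the right.

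In the lower direction 321 of the 15409 members met the same conditions, with the minimum of 10 CPM applied to pre-spawning ovaries. cluster26677 had 4.09, 9.79 and 1.98 CPM in spawning ovaries, against 20.7, 136 and 52.9 CPM in pre-spawning ovaries. cluster66256 had 3.76, 10.04 and 1.31 CPM in spawning ovaries, against 17.6, 89.4 and 51.3 CPM in pre-spawning ovaries. cluster26405 had 1.64, 3.99 and 2.51 CPM in spawning ovaries, against 8.53, 65.4 and 16.01 CPM in pre-spawning ovaries. In all 3 features pre-spawning ovary 2 was the highest library and spawning ovary 2 the highest spawning library. Their log2 fold changes were -3.72 ± 0.86, -3.39 ± 0.84 and -3.46 ± 0.86 (SE), with an edgeR adjusted p of 0.868 each. Without pre-spawning ovary 2 the value for cluster26405 was -2.17. Their post-spawning means were lower still, with 3.17, 0.791 and 1.04 CPM for cluster26677 in post-spawning ovaries.

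cluster25071 had 1.97, 1.03 and 0.345 CPM in spawning ovaries, against 7.69, 20.8 and 11.9 CPM in pre-spawning ovaries. cluster8198 had 0.548, 2.68 and 2.16 CPM in spawning ovaries, against 12.1, 26.7 and 10.8 CPM in pre-spawning ovaries. cluster59785 had 2.19, 1.09 and 4.16 CPM in spawning ovaries, against 27.9, 8.97 and 26.8 CPM in pre-spawning ovaries. The stages were well apart for each, and the testes held at most 0.0810 CPM of cluster59785. The log2 fold changes were -3.60 ± 0.75, -3.19 ± 0.71 and -3.09 ± 0.70 (SE), and none passed the edgeR test. DESeq2 called all 3, at adjusted p values of 0.000932, 0.00563 and 0.00685, and again without spawning ovary 3, at 0.00812, 0.0212 and 0.00118.

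cluster49362 was the steadiest within stages on this side, with 5.48, 4.30 and 2.58 CPM in spawning ovaries against 12.5, 16.6 and 16.7 CPM in pre-spawning ovaries. cluster65496 and cluster14994 had log2 fold changes of -2.99 ± 0.72 and -2.10 ± 0.52 (SE). cluster14994 ran from 16.1 to 238 CPM in testes, the lowest of them close to its highest level here, 15.4 CPM in pre-spawning ovary 3. The testis values are on unscaled totals and the ovary value on a TMM-scaled total. The fit with season as a block added cluster19483 to the lower set, with 2.34, 20.6 and 5.38 CPM in spawning ovaries against 12.0, 159 and 87.1 CPM in pre-spawning ovaries. Spawning ovary 2 lay above pre-spawning ovary 1, so its stages overlapped, but spawning was lower in every season, by -2.13, -2.92 and -3.90 log2 units.

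The separated sets differed in where they stood in the other libraries. Of the 297 members higher in spawning ovaries, 11 (3.70%) were ovary-predominant, against 111 of the 321 lower ones (34.6%) and 8.33% of the 15409 members tested with a mean of at least 10 CPM. Their level after spawning usually lay between the stage means, in 210 of the 297 higher members (70.7%) and 180 of the 321 lower members (56.1%), beside 31.8% of the 15409. The post-spawning mean was above both stages for 81 of the higher members and below both for 6, while for the lower members the counts were 62 and 79. These shares describe members chosen for their separation and carry no test. The median absolute log2 fold change was 1.34 in the higher set and 1.30 in the lower set, beside 0.37 over the 15409. A post-spawning mean has more room to fall between stage means that lie far apart. The excess over 31.8% is therefore in part built in by the choice.

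Few members were near 0 throughout a stage. At most 3 counts in every pre-spawning library together with at least 1 CPM in all 3 spawning libraries was seen for cluster9125 alone, which had 56, 78 and 462 counts in spawning ovaries against 0 counts in each pre-spawning ovary. Set against a floor of 3 counts over the stage, it was at least 175-fold higher in spawning ovaries. It had 0 counts in the post-spawning ovaries as well and at most 0.266 CPM in testes. DESeq2 called it at an adjusted p of 4.4e-06, and at 0.00308 without spawning ovary 3, while its edgeR adjusted p was 0.868. At the looser requirement of 1 CPM in at least 1 spawning library there were 114 such members among the 33567, and 23 in at least 2. They met the threshold for members only through the spawning ovaries. The share over all features was not computed.

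In the other direction 2 members met the same condition. cluster28143 had 0 counts in each spawning ovary, against 46, 73 and 177 counts in pre-spawning ovaries, and was at least 112-fold lower in spawning ovaries against the floor of 3 counts over the stage. cluster8097 had 0, 1 and 0 counts in spawning ovaries, against 1307, 89 and 36 counts in pre-spawning ovaries. Pre-spawning ovary 1 held most of its counts, and the post-spawning ovaries held 0. With 1 CPM required in at least 1 pre-spawning library there were 125 such members among the 33567, and 24 in at least 2. They met the threshold for members only through the pre-spawning ovaries. Counts of 0 and the bounds made from them cover counting error only.

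The largest fitted changes mostly belonged to features with few or no counts in most of the 6 libraries. cluster14107 had 2, 2161 and 2462 counts in spawning ovaries, against 0 counts in each pre-spawning ovary, at least 1362-fold higher against the floor over the stage. Spawning ovary 1 was at the floor. cluster55569 had 522, 0 and 1006 counts in spawning ovaries against 0 in each pre-spawning ovary, and cluster14753 had 51, 0 and 2715 counts against 0. Spawning ovary 2 held no count of either. In post-spawning ovaries 2 and 3, cluster14107 had 6538 and 1557 counts and cluster55569 had 4461 and 4670. Post-spawning ovary 1 held 653 counts of cluster14753. In the lower direction cluster50225 had 0 counts in each spawning ovary against 1358, 0 and 2 counts in pre-spawning ovaries. Fitted fold changes of features with 0 counts throughout a stage depend on the prior count and are not given.

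The leading DESeq2 calls were mostly of this kind. cluster50225 had the smallest DESeq2 adjusted p, 8.57e-09. Of the 6 libraries, pre-spawning ovary 1 held nearly all its counts, while post-spawning ovaries 2 and 3 held 1112 and 1106. cluster75666 and cluster43619 likewise had 423 and 165 counts in pre-spawning ovary 1 and 0 in the other 5 of the 6 libraries. cluster23808 had 170 counts in pre-spawning ovary 2 alone of the 6. In post-spawning ovaries 2 and 3, cluster75666 had 820 and 820 counts, cluster43619 had 314 and 121, and cluster23808 had 55 and 28. cluster53850 and cluster15539 had 284 and 268 counts in spawning ovary 3 and 0 in the other 5 of the 6 libraries. Of the 6 libraries, cluster62775 had counts in pre-spawning ovaries 2 and 3 only, and cluster69333 in spawning ovaries 1 and 3 only. Post-spawning ovary 1 held 197 counts of cluster62775 and 129 of cluster69333. Among the named calls, cluster50643 was present in all 3 spawning ovaries, with 21, 83 and 186 counts, against 0 in each pre-spawning ovary.

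**Figure D5:**
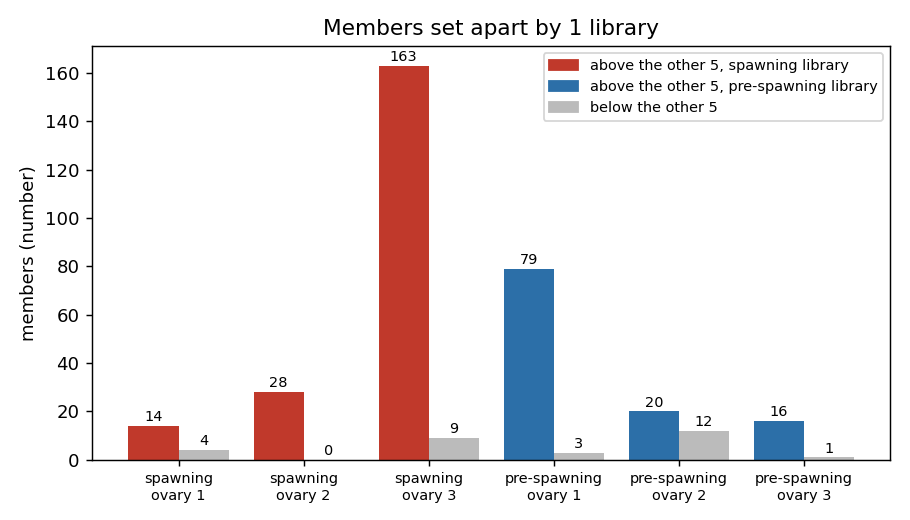
Number of members with at least 8 times the level of each of the other 5 libraries (coloured bars, with a minimum of 10 CPM) and with at most an eighth of each of them (grey bars), for each of the 6 libraries. Spawning ovary 3 leads with 163 members above the others, followed by pre-spawning ovary 1 with 79.

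Members set apart by a single library were unevenly divided, as the bar chart of such members shows. Spawning ovary 3 had 163 members at least 8 times above each of the other 5 libraries, and spawning ovaries 1 and 2 had 14 and 28. Pre-spawning ovaries 1, 2 and 3 had 79, 20 and 16. The 163 members of spawning ovary 3 held 1.56% of its counts, and 126 of them had at least 10 CPM in post-spawning ovary 1, compared with 6 and 4 in post-spawning ovaries 2 and 3. The 79 members of pre-spawning ovary 1 held 1.65% of its counts, and 54 and 49 of them had at least 10 CPM in post-spawning ovaries 2 and 3, compared with 3 in post-spawning ovary 1.

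Single libraries also set the largest spread within a stage. cluster19008 had 98, 0 and 16 counts in spawning ovaries, against 260495, 17 and 12 counts in pre-spawning ovaries, so that pre-spawning ovary 1 alone reached 8079 CPM. cluster37246 had 37, 0 and 4 counts in spawning ovaries, against 85921, 2 and 3 counts in pre-spawning ovaries. Their fitted log2 fold changes of -11.01 ± 3.55 and -10.89 ± 3.52 (SE) changed sign without pre-spawning ovary 1, to 1.42 and 2.46. cluster14689, not tested for its low counts elsewhere, had 6, 0 and 3 counts in spawning ovaries against 15378, 0 and 0 in pre-spawning ovaries.

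Among spawning ovaries the widest spread was in cluster33417, cluster45417 and cluster73156. cluster33417 had 326, 0 and 878 CPM in spawning ovaries, against 0.806, 9.55 and 0.0643 CPM in pre-spawning ovaries. cluster45417 had 312, 0 and 731 CPM in spawning ovaries, against 0.310, 7.63 and 0.129 CPM in pre-spawning ovaries. Both had 0 counts in spawning ovary 2, below all 3 pre-spawning libraries. cluster73156 had 28.8, 0.0624 and 808 CPM in spawning ovaries, against 17.8, 14.0 and 0.418 CPM in pre-spawning ovaries, and its log2 fold change of 4.70 ± 2.53 (SE) was 0.43 without spawning ovary 3. All 3 were high in post-spawning ovary 1, at 1311, 1151 and 1213 CPM.

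Some abundant members differed little between the 6 libraries. At a mean of at least 50 CPM the median ratio of highest to lowest library was 2.22. Of 3702 members with a mean of at least 50 CPM, 1414 (38.2%) had a highest library within 2 times the lowest and 320 (8.64%) within 1.5 times, while 143 (3.86%) spanned more than 10 times. cluster13300 was the steadiest, with 190, 186 and 185 CPM in spawning ovaries against 207, 190 and 202 CPM in pre-spawning ovaries. cluster4, which joins 126 transcripts, had 110, 107 and 117 CPM in spawning ovaries against 105, 115 and 116 CPM in pre-spawning ovaries. cluster39008, cluster69001 and cluster26687 were the next, each with a highest library at most 1.14 times the lowest. cluster69001 and cluster39008 were several times lower in testes, with medians of 19.0 and 20.9 CPM over 9 testes, beside means of 307 and 381 CPM in spawning ovaries and 330 and 415 CPM in pre-spawning ovaries.

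The number of transcripts joined in a feature went with a small shift. The median log2 fold change was -0.05 for 16687 members of 1 transcript, -0.04 for 10681 of 2 to 4 transcripts and -0.01 for 3792 of 5 to 9 transcripts. It was 0.11 for 1984 members of 10 to 39 transcripts and 0.22 for 142 members of 40 or more. For members of 40 or more transcripts the season medians were 0.27, -0.15 and 0.44, so season 2 ran the other way. Of these 142 members, 10 had every spawning library above every pre-spawning library (7.04%, beside 6.16% of all features tested) and 5 had every one below (3.52%, beside 7.27%).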

How the data were processed

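Gonad RNA was sequenced in 18 libraries. Per the labels, Trizol extracts were depleted of ribosomal RNA by a NEBNext kit designed for human, mouse and rat before NEBNext Ultra II libraries were made. The authors deposited a table of counts per feature, together with a map from transcripts to features. Salmon and fastp are the tools named per the submitters' processing notes. Their settings and the transcriptome are not stated in the sources used, so the counts may be rounded estimates, and reads of duplicated genes may be divided between features.

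CPM were computed here from the deposited counts and TMM-scaled totals of the 9 ovary libraries, with a pseudocount of 0.5 CPM for log2 values. CPM of the testes used unscaled totals, as did the choice of ovary-predominant and testis-predominant features. Levels in ovaries and testes are thus not on the same scale. The main test was edgeR 4.0.16 (quasi-likelihood F-test, 3 stage means over 9 ovaries, filterByExpr) in R 4.3.3, with p-values adjusted by the Benjamini-Hochberg method over every feature tested, at a threshold of 0.05; standard errors were taken from the F statistic. DESeq2 1.42.0, limma-voom 3.58.1, other scalings, filters and samples and each library left out were alternatives. DESeq2 left 719 features without an adjusted p. Single values per library were compared by exact permutation in SciPy 1.17.1, and features detected were counted after thinning to 24700000 counts. Counting floors of 3 counts cover counting error only.

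The labels give each replicate number as a season shared by the stages, so the numbers pair the samples by season. Deviations from the stage means correlated at 0.0406, -0.0642 and -0.127 within seasons 1, 2 and 3, and at -0.0644 to 0.159 across seasons.

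Features were named by rule: up to 10 in each direction past the test or, failing that, those of lowest p with a log2 fold change of at least 1, at least 10 CPM in the higher stage and no overlap; the 10 most abundant of each stage; those of largest fold change, of lowest DESeq2 or season-blocked p, at the floor in 1 stage, steadiest, or most variable within a stage. The members, groups and rules were chosen with earlier results of these data known.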

Additional observations from a re-analysis of the deposited data

How the results depend on the processing

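The edgeR count of 0 calls did not change with RLE scaling, a filter at 1 CPM, the 6 or all 18 libraries, robust fitting, limma-voom, or any of 9 libraries left out. With season as a replicate block it was also 0, with 1938 features at an unadjusted p under 0.05 and a smallest adjusted p of 0.381, and the block changed no other call. With no low-count filter edgeR called 1389 of 100952 features, 783 higher and 606 lower. Of the 1389, 1051 had also passed the main filter and 1153 were among the 33567 members. Separated libraries were seen for 348 of the 1389, beside 6.16% higher and 7.27% lower of all features tested in the main fit. The calls were chosen for a difference between the stages, so the 348 carry no test. At most 3 counts in 8 or more of the 9 ovaries was seen for 135. Of the 52 named features refitted, 37 passed with no filter, so the count of 0 depended on the filter for members too. DESeq2 called 88, and 91 without spawning ovary 3. The unadjusted count of 2092 was 6139 with no filter and 4482 with 18 libraries, and ran from 1430 to 3949 with a library left out, the highest without post-spawning ovary 1. Raising the threshold to 5 CPM left 20780 members, by construction. Separated members numbered 3178 to 5203 higher and 3761 to 5968 lower with a library left out, where fewer libraries have to be separated. The ovary-predominant median of -0.48 was -0.29 at a ratio of 4, -0.57 without spawning ovary 3 and post-spawning ovary 1, -0.51 when post-spawning ovaries 2 and 3 defined the group, and -0.62 to -0.27 with a library left out; the cause was not tested. Detected features, 368 more in spawning ovaries at 1 count, were -277 at 5 counts and -295 to 824.5 with a library left out. Of 52 named features refitted, cluster19008 (1.42) and cluster37246 (2.46) changed sign without pre-spawning ovary 1, and with a library left out ranged from -13.80 to 1.42 and from -14.05 to 2.46. The alternatives without 2 libraries, with DESeq2 less spawning ovary 3, with RLE-scaled CPM and with 2 post-spawning ovaries were chosen after seeing the data.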
